A study of Mus musculus with 226 samples.

Results

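Ib-like spiral ganglion neurons of the cochlear apex and of the middle turn were compared in Wildtype mice at postnatal day 27 (P27). They were 36 of the 78 Wildtype P27 cells sequenced: 14 of 44 labelled Apex and 22 of 34 labelled Middle. A cell was selected on 2 of its own measured values, at least 100 and under 4500 CPM of Calb2 and under 300 CPM of Lypd1. CPM is a gene's count divided by all counts on genes in that cell, times 1000000. The counts of these 2 genes therefore describe the selection and carry no result.

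Each sample was 1 dissociated neuron that expressed the red reporter TdTomato, placed by hand in a tube and sequenced with Smart-seq2, which covers whole transcripts. All cells came from reporter mice (bhlhb5::cre/+; Ai14/+), in which Cre recombinase driven by bhlhb5 switches the reporter on, so only neurons with that history could be picked. Wildtype cells of P26 are used for comparison, and the 3 Wildtype cells of P25 and the 40 cells of Vglut3-/- mice are not used here. No animal, litter or preparation is named for any cell, so each group counts as 1 sample and no p-value is given.

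Spiral ganglion neurons carry sound information from the hair cells to the brain. Type I neurons contact inner hair cells and fall into the molecular classes Ia, Ib and Ic, which are known to differ in calretinin (Calb2), calbindin (Calb1), Lypd1 and Pou4f1. Type II neurons contact outer hair cells and can carry Th, Ngfr and Gata3. The cochlea is ordered by frequency: the apex responds to low tones and the middle turn to intermediate ones, so neurons of 1 class at both places serve different frequencies.

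The 36 cells held between 1594000 and 4613937 counts on genes and between 7420 and 9390 genes with a count. None of the cells duplicated another; the most alike had a correlation of 0.865. Xist was counted in all 36 cells and the 4 Y-linked genes examined in none. Spike-in RNA took 1.58% to 9.55% of counts in Apex cells. Among the Middle cells, 8 had a spike-in share of 0.650% to 1.18% and 14 had a share of 2.79% to 8.53%. This division followed the cell numbers in the labels: the first 8 were numbered 486 to 516 and the other 14 were numbered 517 to 539. TdTomato had a median of 1030 CPM in Apex and 534 CPM in Middle cells. Apex cells were numbered 405 to 460 and Middle cells 486 to 539, so location and collection cannot be told apart at P27, and any named difference below was required to hold against both sets of Middle cells.

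Markers of class Ib that the selection did not use were high in most of the cells. The cells and the marker lists were chosen with earlier results of these data known. These levels therefore describe the group and are not independent support for its name. Pooled over all 36 cells, Calb1 had 204.1 CPM (95% Poisson interval 201.3 to 207.1), against 24.1 CPM in the 18 Ia-like and 23.0 CPM in the 19 Ic-like Wildtype P27 cells. Ttn, the gene of the giant muscle protein titin and a marker of class Ib, had 255 CPM (251 to 258), against 24 and 14 CPM. A count of either gene was present in 34 of 36 cells, and at least 100 CPM of either in 28, which were 9 of 14 Apex and 19 of 22 Middle cells. Runx1, which classes Ib and Ic share, had 119 CPM, and Grm8, a marker of class Ic, had 0.311 CPM against 142 CPM in Ic-like cells. Pou4f1, which also differs between the classes, was not low in the same way as Grm8. It was counted in 31 of 36 cells, with a pooled level of 141 CPM. This level lay between those of the Ia-like cells (39.7 CPM) and the Ic-like cells (981 CPM). All such intervals cover counting error only, since reads without molecular identifiers are not independent molecules.

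One Apex cell, number 415, went furthest against the label. It held 7840 CPM of Th, 5092 CPM of Gata3 and 2993 CPM of Ngfr, and no count of Calb1, Ttn, Lrrc52 or Runx1. Prph, another type II marker, had no count in this cell or in any of the other 35. In the other 35 cells Th reached at most 0.217 CPM, Gata3 954 CPM and Ngfr 481 CPM. With 125 CPM of Calb2 it was the cell just inside the lower limit, and it had the highest spike-in share of all 36. The nearest cell below that limit, Apex cell 416, had 25.8 CPM of Calb2, and the next cell above it, Middle cell 529, had 237 CPM. At the upper Calb2 limit, Apex cell 417 was just inside with 4339 CPM and Apex cell 429 just outside with 5066 CPM. At the Lypd1 limit, Middle cell 529 was just inside with 278 CPM and Middle cell 500 just outside with 362 CPM. Values without cell 415 are given below where they differ most or no longer pass the limits.

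**Figure D1:**
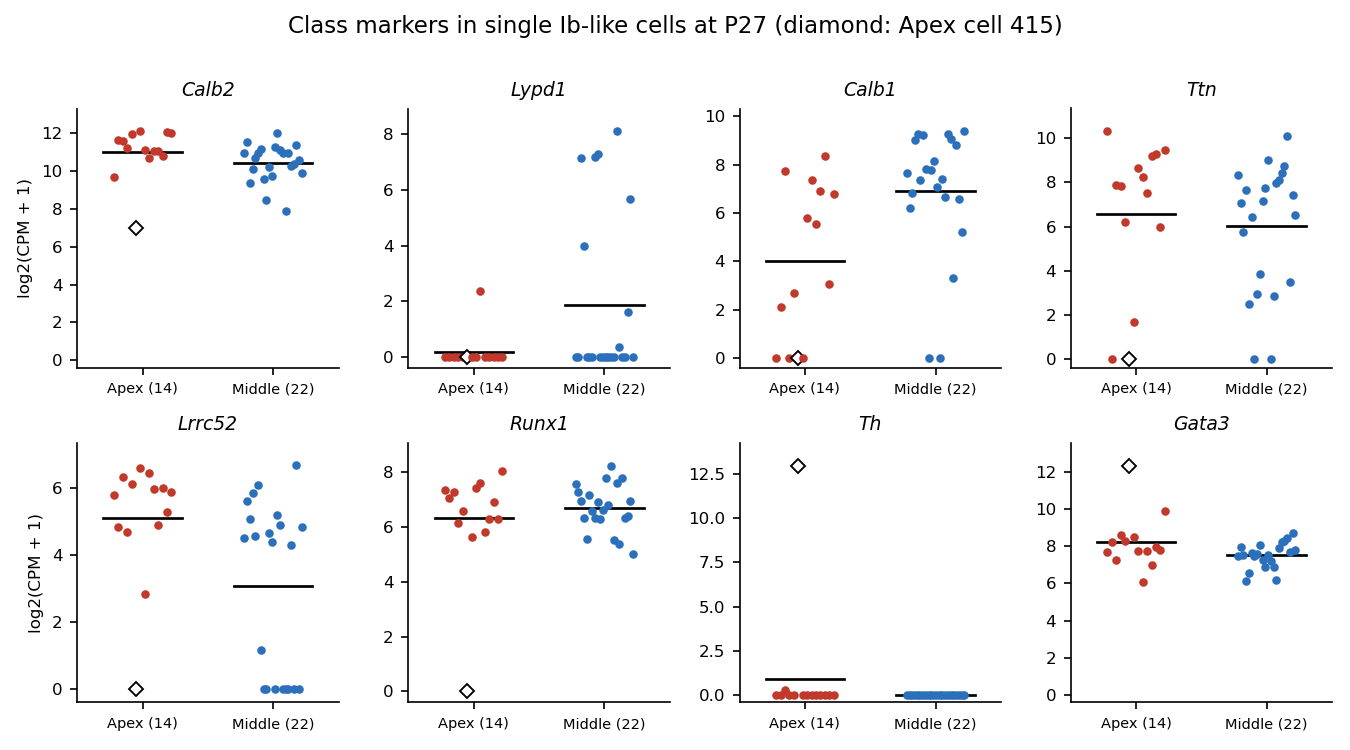
Single-cell levels of 8 class markers in Ib-like cells at P27, as log2(CPM + 1), in 14 Apex and 22 Middle cells. Each point is 1 cell, the bar is the mean over cells and the diamond is Apex cell 415, which alone has high Th (7840 CPM) and no Lrrc52 or Runx1. Calb2 and Lypd1 selected the cells.

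Within the selected range, Calb2 was unequal between the locations. Apex cells held 125, 2246 and 4339 CPM (lowest, median, highest) and Middle cells 237, 1577 and 4102 CPM. Lypd1 had a count in 1 of 14 Apex cells, at 4.14 CPM, and in 8 of 22 Middle cells, at up to 278 CPM. The Ib-like cells made up 31.8% of Apex cells at P27 (14 of 44, 95% Clopper-Pearson interval 18.6% to 47.6%) and 64.7% of Middle cells (22 of 34, 46.5% to 80.3%). At P26 the order was the other way, 75.0% in Apex (9 of 12, 42.8% to 94.5%) and 30.8% in Middle (16 of 52, 18.7% to 45.1%). These shares follow from the Calb2 and Lypd1 values used by the selection and are a description, and their intervals cover counting error only, with each group as 1 sample. Cells were placed in tubes by hand, and the part of that choice in these shares was not tested.

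Gene by gene, differences between Apex and Middle Ib-like cells went both ways. Pttg1, Ryr3, Adgrl2 and Prune2 were among the genes lower in Apex, and Clic1, Zer1 and Capn1 among those higher in Apex. A gene was compared when its higher group had at least 20 CPM and a count in at least 50% of cells. It passed the limits when 3 measures lay on the same side. These were a log2 fold of pooled CPM (with 1 CPM added) of at least 1, a difference of mean log2(CPM + 1) over cells of at least 1, and a log2 fold of at least 0.5 against each set of Middle cells. Of 7011 genes compared, 3.12% were past the limits and higher in Apex and 2.4% were past them and higher in Middle. Without cell 415 the shares were 2.77% and 2.37% of 6956 genes, and 71.7% and 80.4% of the genes past the limits with that cell were also past them without it. The median log2 fold of all compared genes was 0.05.

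Prune2, which encodes a protein with a BCH domain, was counted in every cell of both locations. Prune2 held 99.1, 203 and 640 CPM in Apex cells (lowest, median, highest) and 950, 1733 and 2438 CPM in Middle cells. The groups did not overlap, and the highest Apex cell was cell 415. Pooled, Prune2 had 225 CPM (220 to 230) in Apex and 1738 CPM (1728 to 1749) in Middle, which gave a log2 fold of -2.94. Prune2 lies on chr19:16956118-17223932 (GRCm38, plus strand).

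Pttg1, which encodes securin, the inhibitor of the protease that separates sister chromatids, was nearly absent from Apex cells. Only 2 of 14 Apex cells had a count, the higher at 6.33 CPM, while all 22 Middle cells had one, at 0.818, 37.5 and 86.5 CPM (lowest, median, highest). The pooled levels were 0.776 CPM (0.512 to 1.13) and 36.4 CPM (34.9 to 38), which gave a log2 fold of -4.40. Pttg1 lies on chr11:43420250-43426251 (GRCm38, minus strand). Gm1976, an unnamed locus, was counted in 3 of 14 Apex and 14 of 22 Middle cells, with a log2 fold of -2.96.

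Ryr3, a ryanodine receptor that releases calcium from the endoplasmic reticulum, was counted in 2 of 14 Apex cells, at up to 23.2 CPM. It was counted in 20 of 22 Middle cells, with a median of 45 and a highest value of 72 CPM, and 17 Middle cells exceeded every Apex cell. The log2 fold was -3.93, with -3.95 and -3.92 against the Middle cells of low and high spike-in share. Ryr3 lies on chr2:112631355-113217096 (GRCm38, minus strand). It was the only one of 13 compared calcium channel genes past the limits, or 7.69% on the Middle side against 2.4% of all compared genes. With 1 member past the limits, the list is not set apart from all genes.

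Adgrl2, a latrophilin (an adhesion receptor of synapses), had a count in 6 of 14 Apex cells, with a median of 0 and a highest value of 52.3 CPM. Of the Middle cells 21 of 22 had a count, with a median of 74.3 and a highest value of 160.6 CPM. The pooled levels were 8.42 CPM (7.49 to 9.45) and 77.6 CPM (75.3 to 79.8), which gave a log2 fold of -3.06. Adgrl2 lies on chr3:148815583-148990555 (GRCm38, minus strand). All 14 Apex cells lay below the Middle median, and 14 Middle cells lay above every Apex cell.

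Lypd6, a GPI-anchored relative of Lypd1 that binds nicotinic receptors, had no count in any Apex cell and a count in 14 of 22 Middle cells, at up to 107 CPM. Its pooled level of 30.1 CPM in Middle was at least 349-fold higher than the 3 counts over the whole Apex group that 0 counts allow. Nalcn, the sodium leak channel that sets resting potential, was counted in 5 of 14 Apex cells (at most 16.0 CPM) and 15 of 22 Middle cells (at most 98.3 CPM), with a log2 fold of -3.25. It was the only one of 12 compared sodium and HCN channel genes past the limits, or 8.33% on the Middle side against 2.4% of all compared genes. Here too, 1 member does not set the list apart. Hcrtr2, an orexin receptor, was counted in 7 Apex and all 22 Middle cells, with medians of 0.417 and 31.8 CPM and a log2 fold of -3.01.

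The other 4 of the 12 genes with the largest values on the Middle side were Frzb, Lrp1b, Gm14403 and Spock1. Frzb, a secreted Wnt antagonist, was counted in 2 of 14 Apex and 12 of 22 Middle cells (log2 fold -3.20). Lrp1b, a large receptor of the LDL receptor family, was counted in 8 of 14 and 22 of 22 cells (-2.20), and Spock1, a matrix proteoglycan, in 6 of 14 and 21 of 22 cells (-2.18). Gm14403 had a log2 fold of -3.59 against all Middle cells, -1.65 against the Middle cells of low spike-in share and -4.05 against the others. Of the 50-base stretches of its annotated transcripts, 36.1% also occur in transcripts of other genes, so its counts are uncertain.

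**Figure D2:**
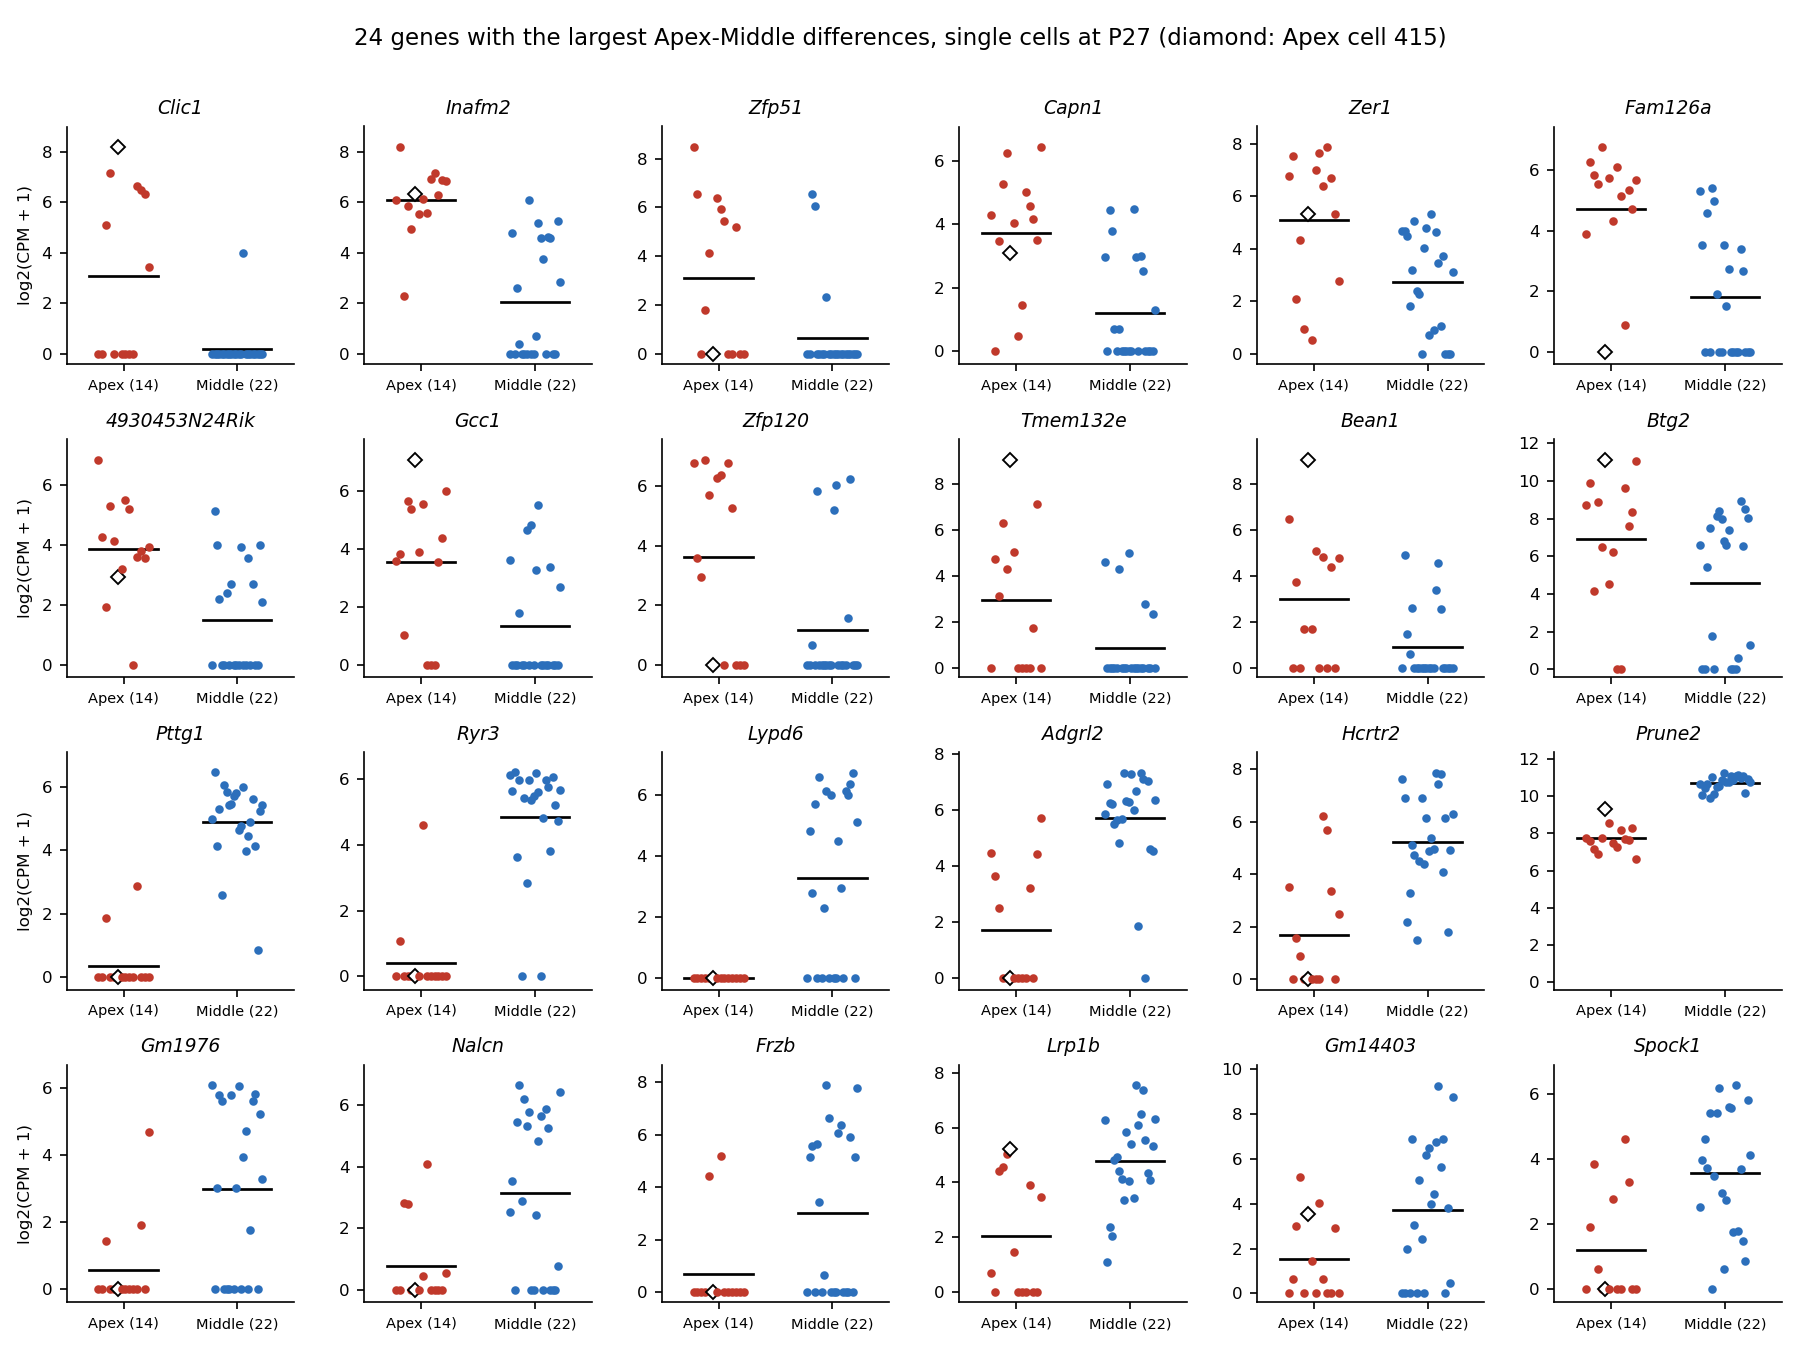
Single-cell levels, as log2(CPM + 1), of the 12 genes with the largest differences on each side in 14 Apex and 22 Middle Ib-like cells at P27. Each point is 1 cell, the bar is the mean over cells and the diamond is Apex cell 415. The upper 2 rows hold genes higher in Apex and the lower 2 rows genes higher in Middle. Prune2 is the panel without overlap, and Tmem132e and Bean1 are highest in cell 415.

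Each of the 12 genes with the largest values on the Apex side overlapped between the groups. For some, such as Inafm2, only Middle cells were at 0. For others, such as Zfp51, cells of both groups were at 0. Zer1, a substrate receptor of a ubiquitin ligase, held 0.433, 61.1 and 234 CPM in Apex cells and 0, 7.94 and 38.7 CPM in Middle cells, with a log2 fold of 2.56. Of the Apex cells 9 of 14 exceeded every Middle cell. Capn1, which encodes the calcium-activated protease calpain-1, was counted in 13 of 14 Apex cells, with a median of 16.4 CPM, and in 10 of 22 Middle cells, with a median of 0. Its log2 fold was 2.39. Exons of Gm10814 on the opposite strand cover 11.8% of the exon bases of Capn1, and the strand setting of the counting is not given, so reads of the 2 genes cannot be told apart there. The same holds for 4.83% of the exon bases of Ryr3 (Aven), 7.02% of Gcc1 (Arf5 and Fscn3), 7.81% of Bean1 (Gm45892) and 6.4% of Cntn5 (Gm32710).

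Inafm2 was counted in all 14 Apex cells, with a median of 73 CPM, and in 12 of 22 Middle cells, with a median of 0.471 CPM (log2 fold 2.53). Fam126a, whose product belongs to a complex that makes a membrane phosphoinositide, was counted in 13 of 14 Apex and 11 of 22 Middle cells (2.24). For Fam126a the log2 fold was 1.03 against the Middle cells of low spike-in share and 3.87 against the others. The zinc finger genes Zfp51 and Zfp120 were counted in 8 and 9 of 14 Apex cells and in 3 and 6 of 22 Middle cells, with log2 folds of 3.15 and 2.10. Gcc1, a Golgi protein gene, and 4930453N24Rik had log2 folds of 2.10 and 2.16.

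Cell 415 moved several values on the Apex side. Clic1, a chloride channel protein gene, had the largest log2 fold of this side, 4.86. Its count in 7 of 14 Apex cells was 6 of 13 without cell 415, under the limit of 50% of cells, although the log2 fold stayed at 4.42. Tmem132e went from 3.48 to 2.4 and remained past the limits, and Bean1 went from 3.25 to 1.91 and did not. Btg2, an antiproliferative immediate early gene, went from 2.05 to 1.72 and also remained past them. Of 54 genes named by the rule, 44 were past the limits with and without that cell. The 10 that were not were Clic1, Bean1, S100a1, Hpcal1, Id1, Id3 and Smad1 on the Apex side and Unc5a, Cntn5 and Sdhaf3 on the Middle side. Unc5a, a netrin receptor, went from -1.18 to -1.11 and Sdhaf3, an assembly factor of respiratory complex II, from -1.21 to -1.13.

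The defining Ib markers were not equal between the locations. Calb1, which encodes the calcium buffer calbindin, held 0, 26.7 and 324 CPM in Apex cells and 0, 185.2 and 663 CPM in Middle cells. The groups overlapped, with 19 of 22 Middle cells above the Apex median. Pooled Calb1 was 78.5 CPM (75.5 to 81.5) in Apex and 279 CPM (275 to 283) in Middle, which gave a log2 fold of -1.82. With the narrower selection of 500 to under 4000 CPM of Calb2 and under 100 CPM of Lypd1, which left 10 Apex and 17 Middle cells, the log2 fold of Calb1 was -1.62. Calb1 lies on chr4:15881264-15908064 (GRCm38, plus strand).

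Lrrc52, an auxiliary subunit of potassium channels of the BK family, was higher in Apex. It held 0, 56.4 and 96.6 CPM in Apex cells, where 13 of 14 had a count, and 0, 20.9 and 101.8 CPM in Middle cells, where 14 of 22 had one. The log2 fold was 1.21. Ttn had 359 CPM in Apex and 192.3 CPM in Middle (log2 fold 0.90, and -1.10 at P26) and Runx1 117.4 and 120.6 CPM (-0.04), and neither was past the limits. Of the 4 Ia and 4 Ic markers, 2 in each list were compared, and none was past the limits. These included Calb2, which selected the cells, and Runx1, which classes Ib and Ic share. The comparison therefore says little about class identity.

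Among 24 compared potassium channel genes, 1 was higher in Apex and 2 in Middle (4.17% and 8.33%, against 3.12% and 2.4% of all compared genes), and the median log2 fold of the list was -0.04. With so few members past the limits, this and the lists below are not set apart from all genes. Kcns3, a silent subunit that modifies Kv2 channels, held 0, 128.9 and 238 CPM in Apex cells and 0, 0.157 and 183.97 CPM in Middle cells, with a log2 fold of 1.88. Kcns3 lies on chr12:11090202-11151056 (GRCm38, minus strand). Its log2 fold was 4.49 against the Middle cells of low spike-in share, of which 2 of 8 had a count, and 1.37 against the others, of which 9 of 14 had one. Kcnip2, a calcium-binding subunit of Kv4 channels, and Kcnmb2, a beta subunit of BK channels, were lower in Apex, with log2 folds of -1.16 and -1.40. Channels known to set fast firing were not past the limits: Kcna1 had 907 and 906 CPM in Apex and Middle, Kcna2 318 and 374 CPM, and Kcnc1 378 and 249 CPM.

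Of 19 compared calcium-binding genes, Ncs1, S100a1 and Hpcal1 were higher in Apex and Calb1 and Camk2b were lower (15.8% and 10.5%, against 3.12% and 2.4% of all compared genes). Without cell 415, 1 of the genes was higher in Apex and 2 were lower. Ncs1, neuronal calcium sensor 1, was abundant in every cell, at 363, 1795 and 2825 CPM in Apex and 218.8, 667 and 1156 CPM in Middle. The log2 fold was 1.35, and 12 of 14 Apex cells exceeded every Middle cell. S100a1 and Hpcal1 had log2 folds of 3.23 and 3.71, which were 1.4 and 1.14 without cell 415, where neither passed the limits. Camk2b, a subunit of the calcium/calmodulin kinase II, was counted in 10 of 14 Apex and 22 of 22 Middle cells (-1.41). Pvalb, the calcium buffer parvalbumin, had 852 and 772 CPM and was not past the limits.

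Of 43 compared cell adhesion genes, 2 were higher in Apex (Opcml, Ncam2) and 4 in Middle (Adgrl2, Lrrtm1, Alcam, Cntn5), and the median log2 fold was -0.03. These were 4.65% and 9.3%, against 3.12% and 2.4% of all compared genes. Opcml, a GPI-anchored member of the IgLON family, was counted in all 14 Apex cells, at 12.8, 74.3 and 138.9 CPM, and in 12 of 22 Middle cells, at 0, 0.370 and 130 CPM. Its log2 fold was 1.76, and all 14 Apex cells lay above the Middle median. Opcml lies on chr9:27790775-28925410 (GRCm38, plus strand). Cntn5, a contactin, had a log2 fold of -1.03, and -0.95 without cell 415, where it was not past the limits.

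Of 25 compared axon guidance genes, Epha7 and Ntng2 were higher in Apex and Sema3d, Slitrk4 and Unc5a in Middle, or 8% and 12% against 3.12% and 2.4% of all compared genes. Unc5a was not past the limits without cell 415. Epha7, an ephrin receptor, held 35.4, 132.1 and 335 CPM in Apex cells and 0, 68.5 and 188 CPM in Middle cells (log2 fold 1.15). Sema3d, a secreted semaphorin, held 0, 8.94 and 42 CPM in Apex and 0, 56.7 and 184.2 CPM in Middle, and 13 Middle cells exceeded every Apex cell (-2.09). Ntng2, a netrin-G, had a log2 fold of 1.32, and 9.9% of the 50-base stretches of its transcripts are shared with 6530402F18Rik.

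Of 38 compared genes of the synaptic vesicle and release list, Vamp3, a SNARE protein of endosomes, was the 1 past the limits (log2 fold 2.65), or 2.63% on the Apex side against 3.12% of all compared genes. Of 14 compared glutamate receptor and postsynaptic genes it was Grik4, a kainate receptor subunit, counted in 11 of 14 Apex and 21 of 22 Middle cells (-1.26), or 7.14% on the Middle side against 2.4%. None of 13 compared neurotrophin and growth factor genes was past the limits. Ntrk3, the receptor of neurotrophin-3, had 52.4 CPM in Apex and 75.6 CPM in Middle, and Ntrk2, the receptor of BDNF, 199.1 and 167.3 CPM.

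Of 48 compared transcription factor genes, Id1, Id3 and Bhlhe40 were higher in Apex and none was higher in Middle, or 6.25% and 0% against 3.12% and 2.4% of all compared genes. Without cell 415, 1 was higher in Apex. Bhlhe40, a repressor of the circadian clock, had a log2 fold of 1.27. Id1 and Id3, inhibitors of helix-loop-helix factors that BMP signals induce, had log2 folds of 2.54 and 2.18, which were 1.73 and 0.57 without cell 415, where neither passed the limits. Smad1, which carries BMP signals to the nucleus, went from 1.45 to 0.82, also short of the limits. Tgfbr3, a co-receptor of TGF-beta, had 1.22, and 1.3 without that cell. In the cholesterol synthesis list, with 8 genes compared, Msmo1 was higher in Apex (1.07) and Cyp51 in Middle (-1.12). This was 12.5% on each side, against 3.12% and 2.4% of all compared genes.

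Immediate early genes, which neuronal activity and tissue handling induce, had a median log2 fold of 0.77 over 11 compared genes, or 0.54 without cell 415, against 0.05 for all compared genes. Btg2 was higher in Apex and Npas4 was higher in Middle (log2 fold -1.99), or 9.09% on each side against 3.12% and 2.4% of all compared genes. Egr1 had 471 CPM in Apex and 205.2 CPM in Middle, and Fos 837 and 535 CPM, without passing the limits. At P26 the median of the same list was -1.06. Whether handling differed between the collections was not tested.

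Most markers of other cells had no counts. Of 16 glial and myelin markers, 12 had 0 counts over all Apex cells and 10 over all Middle cells, including Mbp and Sox10. Their summed level was 14.6 to 902 CPM in Apex cells (median 578) and 178.2 to 1199 CPM in Middle cells (median 490). S100b, a calcium-binding protein gene that is also in the calcium-binding list, had 551 and 466 CPM of this, pooled. Of 13 hair cell markers, 9 had 0 counts over Apex cells and 8 over Middle cells, among them Otof, Slc17a8 and Pou4f3 in both. Their summed level reached 177.4 CPM in Apex and 134.2 CPM in Middle cells. The part of RNA from other cells in the results was not tested.

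Wildtype Ib-like cells at P26, selected with the same limits, gave a second set of cells: 9 Apex and 16 Middle. The P26 Middle cells reached down to 604006 counts and 5100 genes with a count, with a median of 7883.5 genes. The lowest values of P26 Apex cells were 1916885 counts and 7825 genes, with a median of 8487 genes. The part of this in the P26 results was not tested. At P26 a gene needed only the first 2 measures, not the fold against each set of Middle cells. The P26 limits were thus looser than those at P27. With them, 334 of 6763 compared genes were higher in Apex at P26, or 4.94%, and 214 were higher in Middle, or 3.16%. Of the genes higher in Apex at P27, 21 were also past the limits on that side at P26, which is 9.59% of the P27 genes and 6.29% of the P26 genes, and 7 were past them on the other side. Of the genes higher in Middle at P27, 11 were past the limits on the same side at P26, which is 6.55% and 5.14% of the 2 lists, and 13 on the other side. Of all 7011 genes compared at P27, 3.81% were past the P26 limits and higher in Apex, and 2.44% were higher in Middle.

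At P26 the genes past the limits at P27 lay on both sides of 0. For genes higher in Apex at P27, the median log2 fold at P26 was -0.05, and 47% lay on the same side of 0, as did 49.5% of all genes compared at P27. At a log2 fold of at least 0.5, 26.9% were on the same side and 29.2% on the other, against 16.0% and 17.2% of all 7011 compared genes. For genes higher in Middle at P27, the median at P26 was -0.14, with 29.8% on the same side and 19% on the other, against 17.2% and 16.0% of all compared genes. At P26, 3 of 9 Apex and 5 of 16 Middle cells had a count of Xist, and 6 of 9 and 11 of 16 of a Y-linked gene, unlike the P27 cells; the part of sex in these differences was not tested.

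**Figure D3:**
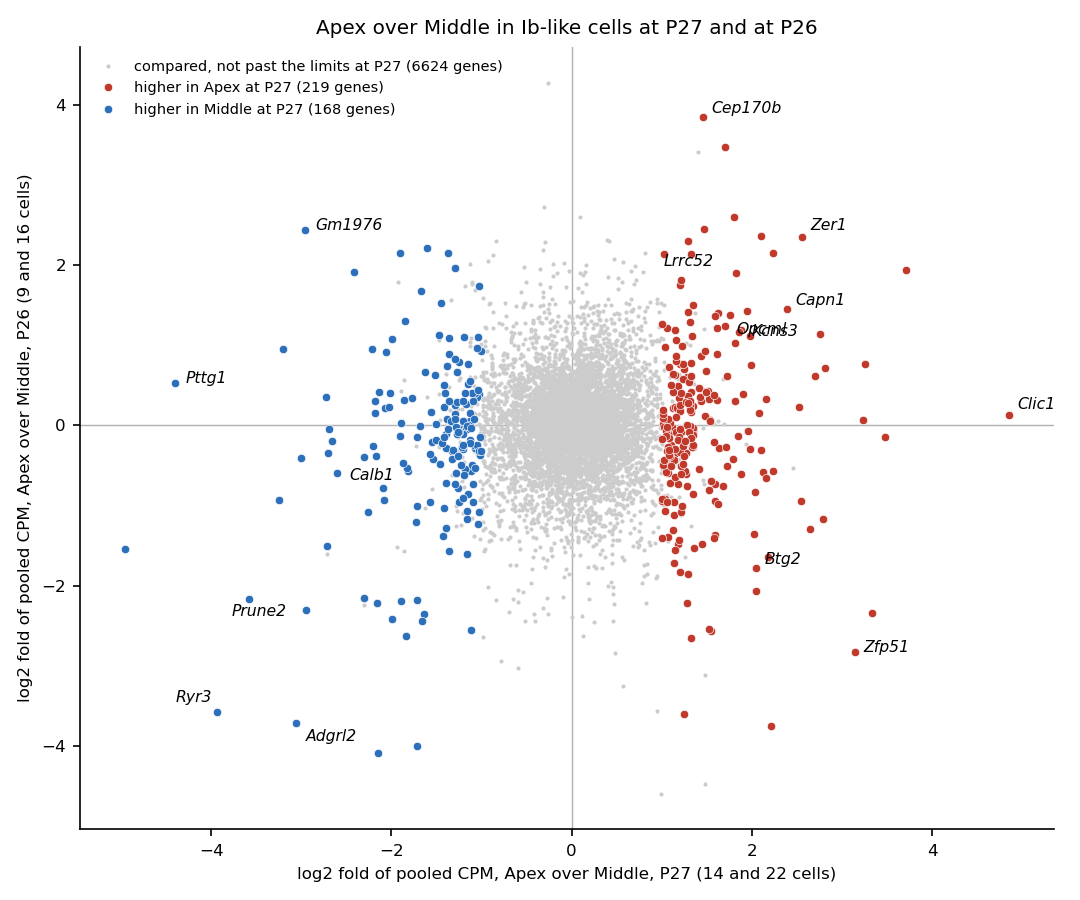
Log2 fold of pooled CPM, Apex over Middle, at P27 (x axis, 14 and 22 cells) and at P26 (y axis, 9 and 16 cells). Each point is 1 of 7011 genes compared at P27, and coloured points are the 3.12% and 2.4% past the limits there. Adgrl2, Ryr3 and Prune2 are low in Apex at both ages, while Pttg1, Gm1976, Btg2 and Zfp51 lie on opposite sides.

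The genes past the limits on the same side at both ages included 6 of the 24 with the largest differences (Adgrl2, Ryr3, Prune2, Gm14403, Zer1 and Capn1) and 4 list members (Lrrc52, Kcns3, Opcml and Npas4). The remaining 22 genes were named after their values had been seen. On the Apex side they were Phf3, Kif21b, Pigm, Kctd21, Osbpl5, Lyrm9, Cdr2l, Pygl, Nrde2, Cep170b, Tmem8, Tmem151b, Gtpbp2, Afap1l1, Ccnj and Trub1. On the Middle side they were Fam117b, Sdc4, Cep85, Umad1, Zfp748 and Osbpl11. Of these, Kif21b (log2 fold 0.89), Kctd21 (0.72), Gtpbp2 (0.74) and Fam117b (-1.64) were not past the limits at P27 without cell 415. Pygl, glycogen phosphorylase of the liver type, had log2 folds of 1.29 and 1.41 at P27 and P26, and Sdc4, the matrix receptor syndecan-4, had -1.36 and -1.57. Cdr2l was counted in all 14 Apex and all 22 Middle cells at P27, with log2 folds of 1.06 and 1.22.

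Adgrl2 was also low in Apex cells at P26. They held 0, 0.522 and 19.7 CPM, against 0, 75.9 and 579 CPM in Middle cells, and the log2 fold was -3.71. The P26 Base cells, 10 Ib-like neurons of the high-frequency end of the cochlea, had 155.8 CPM pooled and a count in all 10. Divided into sets of cells with neighbouring numbers and 1 label, without cell 415, the mean log2(CPM + 1) of Adgrl2 was 0.20, 2.23 and 1.85 in the 3 Apex sets. It was 5.50, 5.86 and 5.63 in the 3 Middle sets and 6.38 and 7.15 in the 2 Base sets. Every Apex set thus lay below every Middle and Base set of at least 3 cells.

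Opcml had the opposite order. Its mean log2(CPM + 1) was 6.34, 7.60 and 5.92 in the Apex sets, 4.07, 2.69 and 2.31 in the Middle sets and 2.01 and 0.89 in the Base sets. At P26 it was counted in all 9 Apex cells, 11 of 16 Middle cells and 4 of 10 Base cells. Its pooled P26 levels were 213, 81.4 and 16.6 CPM in that order, while the single Middle cells ranged from 0 to 366 CPM. Lrrc52 was 5.32, 4.71 and 5.52 in the Apex sets, 1.77, 4.11 and 2.50 in the Middle sets and 0.12 and 0 in the Base sets. At P26 the log2 fold of Lrrc52, Apex over Middle, was 1.75, and 2 of 10 Base cells had a count.

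Kcns3 and Capn1 were higher in every Apex set than in every Middle set of at least 3 cells, while the Base sets differed from each other. Kcns3 had means of 5.74, 6.35 and 6.36 in the Apex sets and 3.87, 0.66 and 3.86 in the Middle sets, with 5.43 and 1.04 in Base. Capn1 had 5.01, 3.48 and 3.77 in Apex, 0.44, 1.57 and 1.02 in Middle, and 2.60 and 4.01 in Base. Over Wildtype cells of all classes, the Capn1 mean was 4.31 in P26 Middle cells numbered 201 to 225. This was above the 2.90 of P26 Apex cells numbered 172 to 196 and the 2.91 of P27 Apex cells. Ib-like Middle cell 203, which belongs to no set of at least 3 cells, had 47.7 CPM. Capn1 thus also varied between stretches of Middle cells. Ryr3 was lower in every Apex set than in the others. It had 1.99, 0.59 and 0.44 in Apex, 3.59, 4.46 and 5.03 in Middle, and 4.56 and 5.96 in Base. Over Wildtype P26 cells of all classes the gap was smaller. The Ryr3 mean was 1.55 in Apex cells numbered 172 to 196. It was 2.17, 2.43 and 1.99 in Middle cells numbered 10 to 25, 53 to 164 and 201 to 225. For Calb1 the sets did not separate: 2.20, 6.93 and 4.33 in Apex, 6.84, 7.91 and 6.34 in Middle, and 6.60 and 0 in Base. Its log2 fold at P26 was -0.57.

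**Figure D4:**
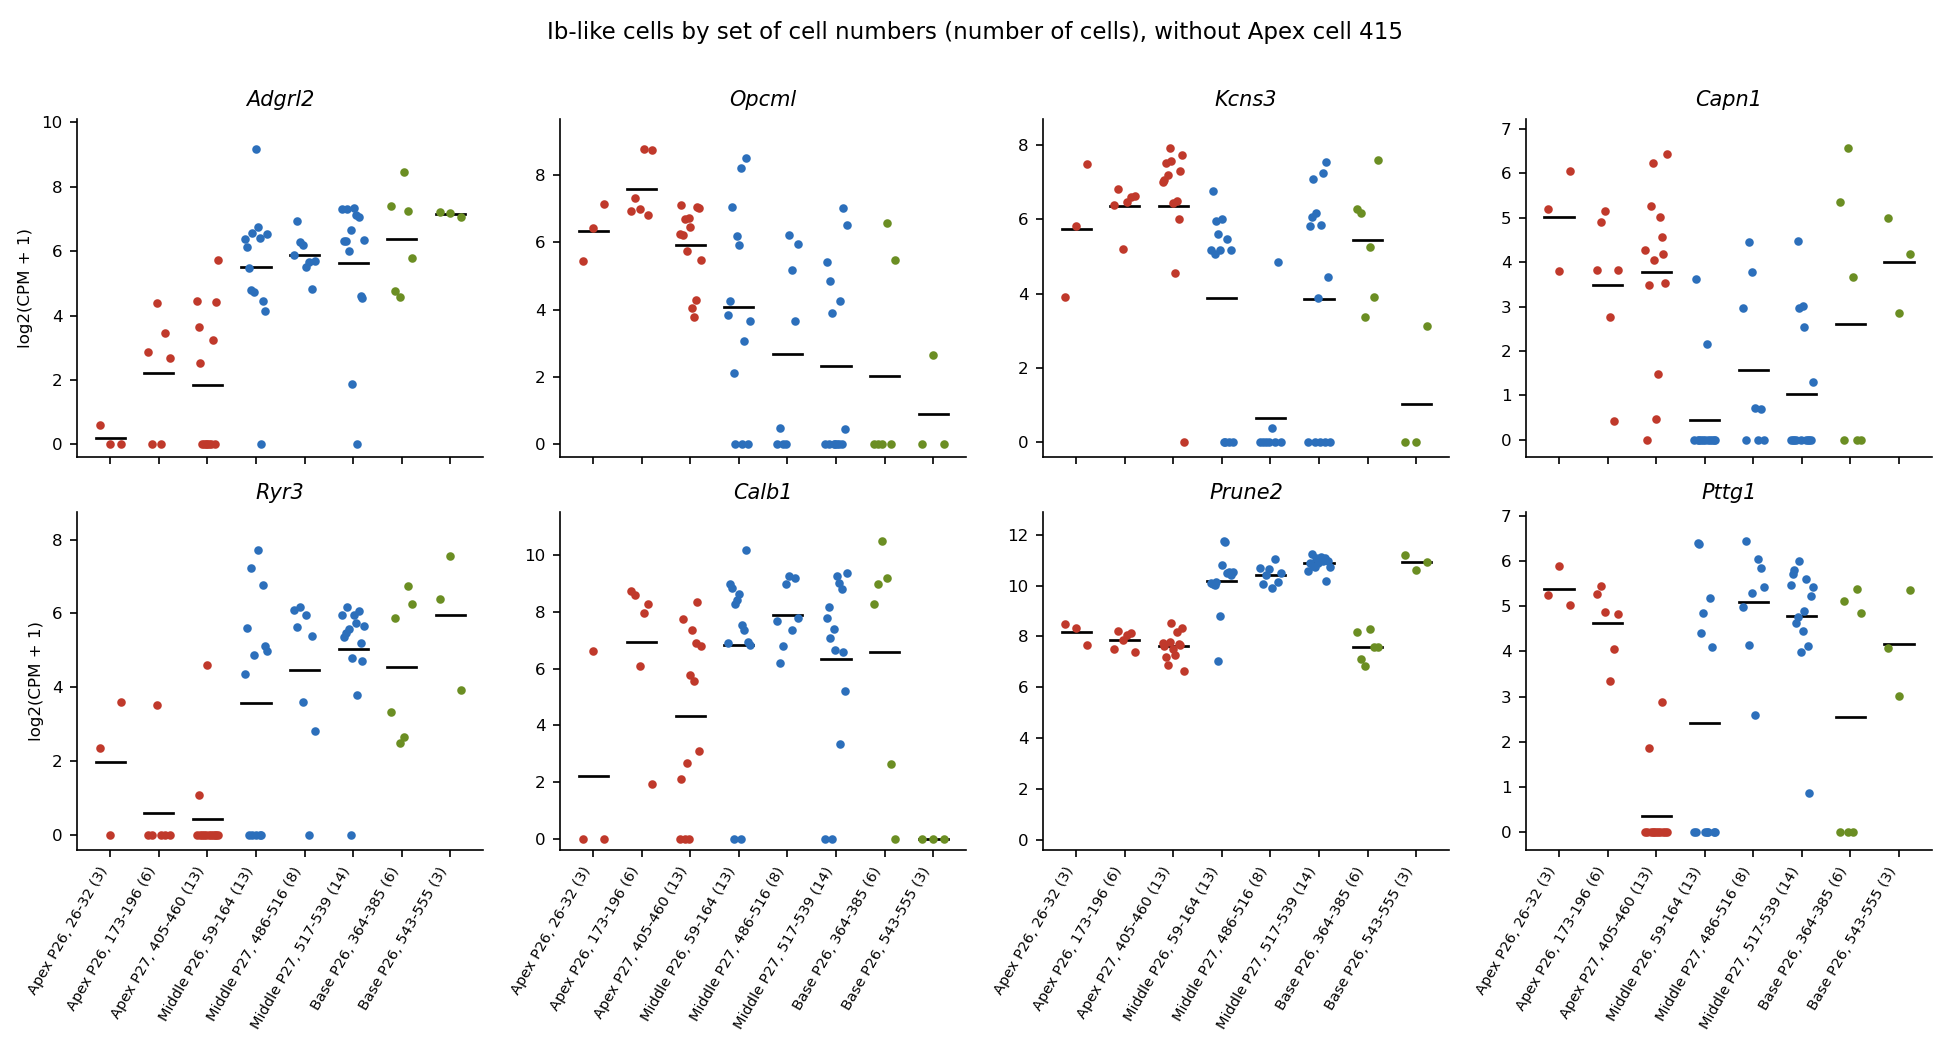
Single-cell levels, as log2(CPM + 1), of 8 genes in Ib-like cells divided by location, age and stretch of cell numbers, without Apex cell 415. Only sets of at least 3 cells are drawn, with the number of cells in brackets, and bars are means. Adgrl2 is low in all 3 Apex sets (0.20, 2.23 and 1.85), while Prune2 and Pttg1 differ between sets of the same location.

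Prune2 and Pttg1 also varied between sets of 1 location. Prune2 had means of 7.60 and 10.92 in the 2 Base sets, the first close to the Apex sets (8.16, 7.86 and 7.61) and the second close to the Middle sets (10.18, 10.42 and 10.88). Over Wildtype P26 Middle cells of all classes, its mean was 10.11 in cells numbered 53 to 164 and 7.87 in cells numbered 201 to 225. Pttg1 had means of 5.39 and 4.64 in the 2 P26 Apex sets and 0.36 in the P27 Apex set, and its log2 fold at P26 was 0.52. Over all 44 Wildtype P27 Apex cells, of every class, Pttg1 had a count in 9. The P26 and P27 Apex sets also differ in age and in counts of Xist and Y-linked genes, and these cannot be told apart. Over Wildtype P26 Middle cells of all classes, the Pttg1 mean was 5.41 in cells numbered 10 to 25. It was 2.65 in cells numbered 53 to 164. Both genes thus varied between stretches of cell numbers within a location, and neither followed the location label throughout. Pttg1 was not lower in Apex at P26. The Prune2 mean of 7.87 in P26 Middle cells was below the 8.12 of P26 Apex cells of all classes numbered 172 to 196.

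The other type I-like cells of P27 came from the same stretches of cell numbers and were compared in the same way: 14 Apex and 4 Middle Ia-like cells, and 11 Apex and 8 Middle Ic-like cells. Of the genes higher in Apex in Ib-like cells, 47.9% had a log2 fold of at least 0.5 on the same side in Ia-like cells and 37.9% in Ic-like cells, against 22.4% and 18.1% of all compared genes. Of the genes higher in Middle it was 32.7% and 40.5%, against 15.2% and 18.3%. Prune2 had log2 folds of -2.75 and -2.94 in Ia-like and Ic-like cells, Adgrl2 -3.39 and -1.84, and Pttg1 -4.23 and -3.62. Opcml had 1.60 and 0.77, Kcns3 3.45 and 2.38, and Lrrc52 1.20 and 2.82.

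Other genes differed from this in at least 1 of the other classes. Calb1 had log2 folds of 0.52 and 1.21 in Ia-like and Ic-like cells, against -1.82 in Ib-like cells. Ryr3 had 0.16 and -1.28, Hcrtr2 1.22 and -0.04, and Nalcn 0.83 and 0.11. With 1 sample a group, these differences between classes were not tested.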

How the data were processed

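The deposited counts are whole reads per gene, 1 column per cell, in a table of 24491 genes, 92 spike-in controls and the reporter TdTomato. The submitters' processing notes name build mm10 and these tools: Seurat 1.4.0.12, edgeR 3.14.0, Subread 1.4.6 with its featureCounts, STAR 2.4.0 and Trimmomatic 0.33. Not given in the sources used here were the roles of these tools, the strand setting, the gene annotation and the handling of multimapping reads. A second deposited table, of normalized values, was not used.

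CPM was computed from counts on genes, without spike-ins and TdTomato. For a group, its cells' counts were added up and scaled to CPM, with 95% exact Poisson intervals. Shares have Clopper-Pearson intervals at 95%. A bound replaced a fold where a group had 0 counts (floor of 3 counts). The number of cells and the unnamed animals limit precision. Alternatives were other scalings, minimums, added CPM and selections of cells. The 36 cells and the gene lists were chosen with earlier results of these data known. Named genes were the 12 per side with the largest smaller value of the 2 difference measures, then members of 30 gene lists past the limits, class markers, and potassium channel, calcium-binding and neurotrophin genes as values. Sex-linked genes were kept apart, and some genes are not reported here. Where results rest on cell 415, the set without it was added after seeing the data, as were the sets of neighbouring cell numbers. The limits were tested on simulated counts with known changes. Those changes were larger than the limits require, and no difference between collections was simulated. The simulation therefore checked only the calculation. Positions and overlaps came from GENCODE M21 (GRCm38). Python 3.11.15, numpy 2.4.6, pandas 2.3.3, scipy 1.17.1 and matplotlib 3.10.9 were used.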

Additional observations from a re-analysis of the deposited data

How the results depend on the processing

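With 1 sample a group there is no replicate error, so these values show only how far the counts of genes move with a setting. Of 7011 genes, 3.12% were past the limits and higher in Apex and 2.4% higher in Middle. The counts were 120 and 95 with 5 CPM added in place of 1, 399 and 283 with no minimum level or share of cells, and 60 and 65 with a minimum of 50 CPM in 75% of cells. They were 379 in Apex against only the Middle cells with a spike-in share below 2%, and 334 and 273 against only the others. The number of genes compared depends on the minimum and on the cells used. Where a setting changed these, its counts do not show whether the share of genes past the limits rose or fell. The other counts at P27 stayed within 1.5 times, among them those without cell 415, an alternative chosen after seeing the data, and those with TMM scaling. All 54 named genes kept their direction in the 14 settings at P27, but these settings could hardly reverse one. The fold against each set of Middle cells was itself among the limits that chose the genes. Other minimums left all 54 values unchanged, and the remaining settings reused the P27 cells. In P26 cells, which did not choose the named genes, 334 of 6763 genes (4.94%) were higher in Apex by the looser limits used there. Of the 54 named genes, 35 kept their direction in P26 cells and 19 did not. Those that did not, and their log2 folds at P26, were Zfp51 -2.83, Fam126a -0.57, 4930453N24Rik -0.66, Zfp120 -0.31, Tmem132e -0.14, Btg2 -1.78, Ncs1 -0.040, Vamp3 -1.30, Ncam2 -0.017, Id1 -0.95, Id3 -1.64, Bhlhe40 -0.60 and Smad1 -1.48 among genes higher in Apex at P27. Among genes higher in Middle they were Pttg1 0.52, Gm1976 2.44, Frzb 0.96, Spock1 0.16, Unc5a 0.41 and Lrrtm1 0.35. The cause was not tested. No paired analysis was possible because the numbers in the labels name single cells and pair none across groups.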
